A study of Mus musculus with 3 samples.

Results

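Keratins are the intermediate filament proteins of epithelial cells, and their genes were followed here on 3 arrays of mouse cells: control-virus spleen fibroblasts, hepatocyte-like cells made from such fibroblasts, and hepatocytes. Members were every array probe whose mapped gene symbol starts with Krt and a digit. The rule found 64 probes for 53 genes, of 20659 named genes in all, and 11 of the 53 had more than 1 probe. By textbook class they were 6 simple keratins, 20 keratins of stratified epithelia, 9 of the inner root sheath and companion layer of hair follicles, 14 hair keratins, and 4 keratins of no clear class (Krt42, Krt88, Krt90 and Krt222). By sequence type 28 were type I and 25 were type II. The gene table used for names lists 55 keratin genes, and the other 2, Krt83 and the pseudogene Krt8-ps, had no named probe.

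The groups were as follows. MF were primary fibroblasts from the spleens of mice remodelled with SiO2 (silica), transduced with the control lentivirus LV-NC. iHep were the same kind of fibroblasts given LV-3TF, a lentivirus for 3 transcription factors, and both were collected at day 14 after transduction. PH were primary mouse hepatocytes, taken fresh as the positive control. All mice were female, and strain and age are not given in the sources used here. Total RNA of 5 samples was pooled per group and hybridised to 1 one-colour (Cy3) array, so there is no replicate, no test and no spread between samples, and "higher" and "lower" describe these arrays. In pooled bulk RNA, fewer cells of a type and less RNA per cell cannot be told apart. The iHep and PH arrays were scanned together and MF in another scan, so wherever MF is compared, scan and group cannot be told apart.

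Keratin filaments are built from obligate pairs of 1 acidic type I and 1 basic type II chain, and a chain without its partner is degraded. Simple epithelia use Krt8 with Krt18, the only keratin pair of healthy hepatocytes, and bile duct cells add Krt7 and Krt19. Basal cells of stratified epithelia use Krt5 with Krt14, upper epidermal layers Krt1 with Krt10, mucosa Krt4 with Krt13, and wounded or activated epidermis Krt6 with Krt16 and Krt17. Hair keratins build the hair shaft. Fibroblasts carry vimentin filaments in their place. In the mouse genome nearly all type I genes lie in a cluster on chromosome 11 and all type II genes in a cluster on chromosome 15, where the type I gene Krt18 lies beside Krt8.

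A level is the log2 processed signal less that of the array's 75th percentile, so 0 is that percentile. Each level is compared only with the same probe on another array. Signals at that percentile were 544.3 on MF, 3752 on iHep and 2081 on PH, so MF was the dimmest array, and the lowest level of any probe called well above background was -6.30, -7.32 and -6.89. Replicate spots of 1 array gave a log2 difference a technical SD of 0.14 to 0.15. Different probes of the same gene disagreed far more, with a pooled SD of a log2 difference of 0.85 between iHep and MF, 1.11 between PH and MF, and 1.09 between iHep and PH. Of the labelled cell types, fibroblast markers had a median level of 5.95 on MF, with 10 of 10 above background, and hepatocyte markers one of 6.10 on PH, with 10 of 10 above background. On iHep the hepatocyte markers had a median level of -4.60 with 9 of 10 above background, and on MF one of -5.35 with 7 of 10. Of the 9 compared between these arrays, Hnf4a alone was at least 2-fold higher on iHep. Also on iHep, 10 of 10 fibroblast markers were at least 2-fold lower than on MF.

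The promoters of 4 simple keratins are shown because their genes gave the widest contrasts between arrays: Krt8 and Krt18, neighbours on chromosome 15 that were high on both iHep and PH, and Krt20 and Krt23, neighbours on chromosome 11 with opposite patterns. Each line is the 250 bases before the annotated start, 5′ to 3′ on the gene's strand, from RefSeq on GRCm38.p6, and capitals mark matches to the motifs searched. The intervals are chr15:102004343-102004592 on the minus strand for Krt8, chr15:102027966-102028215 on the plus strand for Krt18, chr11:99438154-99438403 on the minus strand for Krt20 and chr11:99493121-99493370 on the minus strand for Krt23.
Krt8: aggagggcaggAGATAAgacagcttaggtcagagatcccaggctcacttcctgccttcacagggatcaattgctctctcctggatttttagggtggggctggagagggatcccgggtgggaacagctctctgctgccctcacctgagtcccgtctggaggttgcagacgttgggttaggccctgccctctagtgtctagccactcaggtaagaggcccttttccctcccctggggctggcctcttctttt
Krt18: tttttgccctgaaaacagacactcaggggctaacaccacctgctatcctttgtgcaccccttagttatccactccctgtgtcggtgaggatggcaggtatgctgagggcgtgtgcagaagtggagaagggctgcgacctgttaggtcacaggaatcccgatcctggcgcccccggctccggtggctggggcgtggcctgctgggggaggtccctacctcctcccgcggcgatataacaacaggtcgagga
Krt20: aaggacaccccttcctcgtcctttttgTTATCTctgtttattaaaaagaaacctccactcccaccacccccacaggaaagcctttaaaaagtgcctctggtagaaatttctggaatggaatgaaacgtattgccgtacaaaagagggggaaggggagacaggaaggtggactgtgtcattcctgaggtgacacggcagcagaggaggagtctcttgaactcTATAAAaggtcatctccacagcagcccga
Krt23: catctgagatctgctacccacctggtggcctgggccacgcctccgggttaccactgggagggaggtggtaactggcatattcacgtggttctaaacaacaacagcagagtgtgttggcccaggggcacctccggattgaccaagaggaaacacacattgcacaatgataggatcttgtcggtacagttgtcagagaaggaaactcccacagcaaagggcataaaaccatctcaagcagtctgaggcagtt

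Of these 4, Krt20 held a TATAAA match 29 bases before its start and, on the other strand, a match to AGATAA (the core bound by GATA factors) 223 bases before it. Krt8 held an AGATAA match 239 bases before its start, and Krt18 and Krt23 held none of the motifs. Motifs were searched on both strands, and none of them contains another: the TATA box as TATAAA, the GC box as GGGCGG, the CCAAT box by its own letters, the AP-1 site as TGANTCA, the FOXA site as TGTTTAC, the GATA site as AGATAA and the HNF4 site as CAAAGTCCA. The promoter table covered 37 promoters of 36 of the keratin genes, among 32851 promoters in all. TATAAA was in 17 of the 37 (45.9%), against 12.4% of all promoters, and AGATAA in 9 (24.3%), against 9.99%. GGGCGG was in 2 (5.41%), Krt7 and Krt75, against 32.7%. CCAAT was in 15 (40.5%), against 33.8%, and TGANTCA in 2 promoters (5.41%), both of Krt13, against 6.75%. The FOXA and HNF4 motifs, both of liver-enriched factors, were in 0 keratin promoters, against 3.17% and 0.384% of all. Keratin promoters had a median GC content of 48.0%, and all promoters one of 52.4%. A match or its absence in these windows is a description of letters, and its part in any level was not tested.

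Keratins were seen above background less often than named genes at large. On MF 25 of the 53 (47.2%) were well above background, on iHep 35 (66.0%) and on PH 40 (75.5%), against 73.0%, 79.6% and 84.2% of all named genes. In total 42 were above background on at least 1 array, 24 on every array and 11 on none. Simple keratins were above background for 5 of 6 on MF, 5 of 6 on iHep and 6 of 6 on PH, and stratified keratins for 10, 15 and 17 of 20. For the root sheath group the counts were 3, 3 and 6 of 9, and for hair keratins 4, 9 and 8 of 14. The 11 keratins above background on none were Krt4, Krt76 and Krt77 of stratified epithelia, Krt25, Krt26 and Krt27 of the root sheath, the hair keratins Krt33a, Krt33b, Krt39 and Krt84, and Krt90. The 3 arrays differed in brightness, and its part in these counts was not tested.

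**Figure D1:**
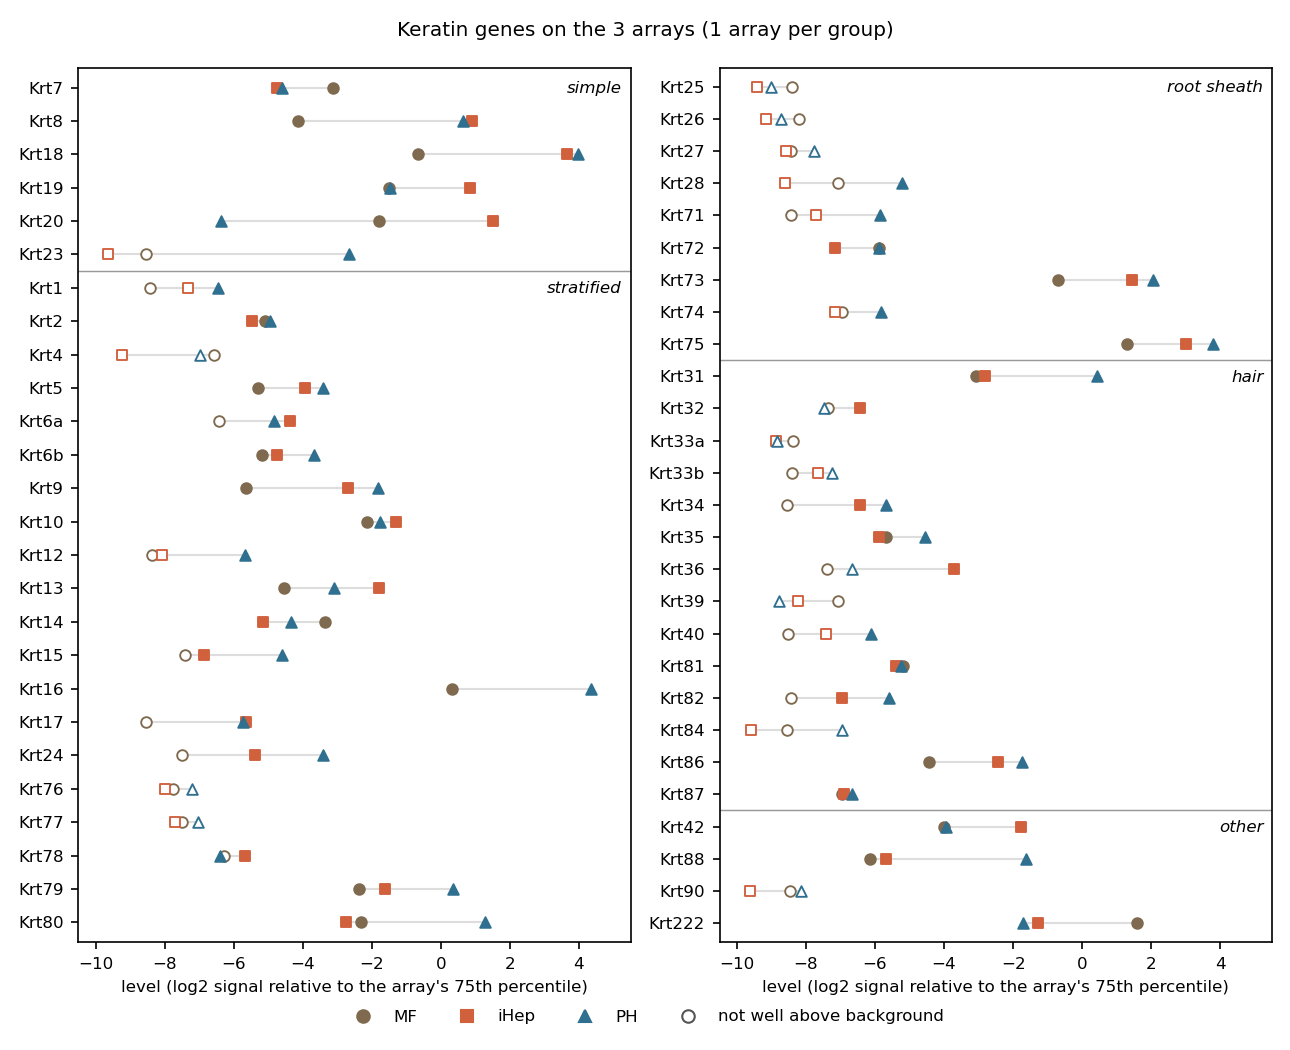
Level of each of the 53 keratin genes on the MF (circle), iHep (square) and PH (triangle) array, by class, as log2 signal relative to the array's 75th percentile. Open symbols were not well above background. Krt8 and Krt18 sit far to the right of MF on both other arrays, Krt20 is spread from -6.35 on PH to 1.53 on iHep, and Krt16 has no iHep value because its only spot was marked as an outlier there.

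For the comparison of iHep with MF, the control named by the study, 34 keratins could be compared. Of these, 13 were at least 2-fold higher on iHep, where 20% of all 17224 genes compared were, and 4 were at least 2-fold lower, where 23.4% of all genes were. The median log2 difference was 0.63 for keratins and 0.00 for all genes, with 10 of the 34 keratin values being bounds from 1 side below background. In each of these bounds MF was the dim side, so they could not come out lower. For PH over MF, 20 of 40 keratins were higher (all genes 30.9%) and 3 were lower (all genes 25.4%), with medians of 0.89 for keratins and 0.05 for all genes and 15 bounds. Each of those bounds also had MF as the dim side. For iHep over PH, 5 of 41 were higher (all genes 23.2%) and 16 were lower (all genes 36%), with medians of -0.77 and -0.30 and 9 bounds. The split over all genes moved with the scaling: 54.9% of the genes that differed by 2-fold were higher in PH over MF, against 43.2% after quantile normalization and 42.0% in the table of the authors, and for iHep over PH 39.2% were higher, against 54.9% and 55.8%. For iHep over MF the split was 46.1% higher, against 28.0% with normexp. Keratins moved too: normexp gave 7 higher and 9 lower for iHep over MF, which turns the balance, and quantile normalization gave 13 higher and 6 lower for PH over MF and 10 higher and 7 lower for iHep over PH.

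Among simple keratins, the pair Krt8 and Krt18 was far higher on both iHep and PH than on MF. Krt8, the type II chain of hepatocytes, had levels of -4.14 on MF, 0.91 on iHep and 0.64 on PH. That is 33.1-fold higher on iHep than on MF and 27.5-fold higher on PH than on MF, while iHep was 1.21-fold above PH. Its type I partner Krt18 had levels of -0.66, 3.66 and 3.98, which is 19.9-fold and 24.9-fold higher on iHep and PH than on MF, with iHep 1.25-fold below PH. For both genes the iHep and PH arrays differed by less than probes of a gene disagree, with log2 differences of 0.27 and -0.32, and MF was the low array although both were above background there. With normexp background correction the Krt8 differences were smaller, 3.52 for iHep over MF and 3.23 for PH over MF on the log2 scale, and the Krt18 differences were between 4.19 and 4.66 in every alternative.

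The bile duct keratins Krt19 and Krt7 did not share that pattern. Krt19, a type I chain of ducts and many progenitor cells, had levels of -1.51 on MF, 0.85 on iHep and -1.48 on PH. iHep alone was high, 5.14-fold above MF and 5.04-fold above PH, and the MF and PH arrays differed by 1.02-fold. Krt7, a type II chain that can pair with Krt19, had levels of -3.12, -4.76 and -4.59. MF was the high array for it: iHep was 3.10-fold lower and PH 2.77-fold lower than MF, and iHep and PH differed by 1.12-fold. All of these calls held under every alternative that kept the 2-fold threshold. Of 10 cholangiocyte markers 5 were above background on MF, 7 on iHep and 9 on PH, with log2 summed levels of 3.69, 3.93 and 2.25. Epcam was not above background on MF or iHep (level -4.82 on PH), while Sox9 had levels of 2.72, 2.40 and 0.81. Mesothelial cells also carry simple keratins: of 9 such markers 9, 4 and 9 were above background on MF, iHep and PH, with log2 summed levels of 3.24, 3.84 and 3.63. On iHep that sum was mostly Msln (level 3.81), 7 of the 9 were at least 2-fold lower than on MF, and Bnc1, Lrrn4, Upk3b, Gpm6a and Rspo1 were not above background. The part of these cell types in the keratin levels was not tested.

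Krt20 and Krt23 showed the strongest contrast between iHep and PH of the simple class. Krt20, a type I keratin of intestinal and urothelial epithelium, had levels of -1.80 on MF, 1.53 on iHep and -6.35 on PH, where it was only just above background. It was higher on iHep than on MF by 3.32 on the log2 scale, 23.5-fold lower on PH than on MF, and 235-fold higher on iHep than on PH. Across the alternatives its log2 difference between iHep and PH ranged from 6.08 to 8.62. Krt23, another type I keratin, had a level of -2.65 on PH and was not above background on MF (read as -8.55) or on iHep (read as -9.65). PH was at least 12.6-fold above MF and at least 25.5-fold above iHep, and no difference is given between MF and iHep. The ranges over alternatives were wide here, 1.03 to 5.90 for PH over MF and -7.00 to -3.41 for iHep over PH. Thus iHep and PH shared a high Krt8 and Krt18 level, while Krt19 and Krt20 were high on iHep and Krt23 was above background on PH only.

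**Figure D2:**
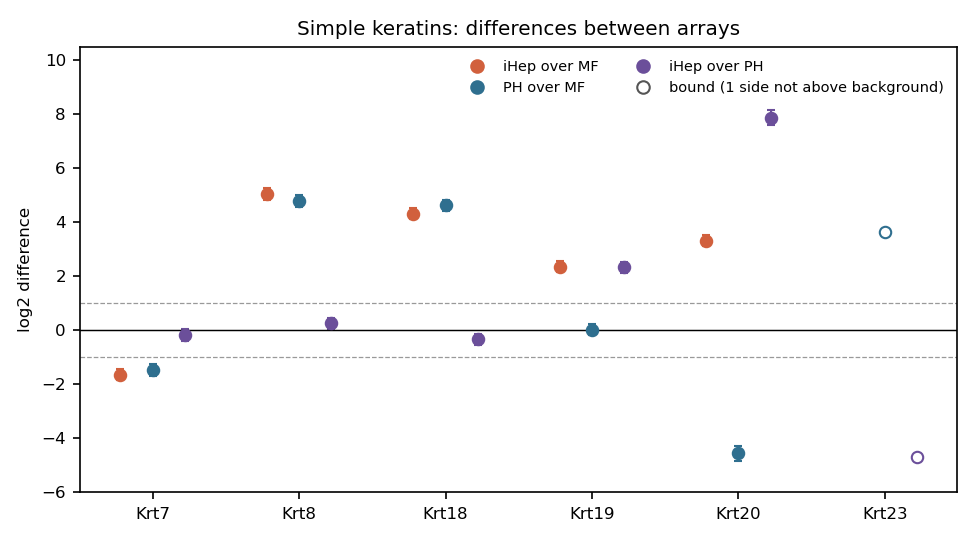
Log2 differences of the 6 simple keratins between each pair of arrays, with dashed lines at 2-fold. Bars are the error given by the scanner software for the spots on both arrays, not a spread between samples, and open symbols are bounds. Krt8 and Krt18 lie above 4 for both comparisons with MF and near 0 for iHep over PH, whereas Krt20 lies at 7.88 for iHep over PH.

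As a class, simple keratins had 4 of 5 compared genes higher and 1 lower for iHep over MF, with a median log2 difference of 3.32. For PH over MF 3 of 6 were higher and 2 lower (median 1.84), and for iHep over PH 2 were higher and 1 was lower (median 0.05). In the authors' processed values the simple median for PH over MF was -0.21, without Krt8, which has no value there. Those values cover 38 of the 53 keratin genes, so their class medians can rest on fewer genes. Stratified keratins had 4 of 14 higher and 1 lower for iHep over MF (median 0.71, 5 bounds). For PH over MF 10 of 17 were higher and 0 lower (median 1.49, 7 bounds). For iHep over PH 1 of 16 stratified keratins was higher and 6 were lower (median -0.84). The stratified median for PH over MF was 0.00 with normexp, and the one for iHep over PH was 0.32 in the authors' values. Hair keratins had 2 of 9 higher and 0 lower for iHep over MF (median 0.00, 5 bounds). They had 3 of 8 higher and 0 lower for PH over MF (median 0.67, 4 bounds). These bounds of stratified and hair keratins against MF could not come out lower, because MF was the dim side. Shares of all genes were 20% higher and 23.4% lower for iHep over MF, and 30.9% and 25.4% for PH over MF. For iHep over PH they were 23.2% and 36%. For iHep over PH 1 of 10 hair keratins was higher and 4 were lower (median -0.74, and 0.48 in the authors' values). Type II keratins had 0 of 20 higher and 8 lower for iHep over PH, and type I keratins 5 of 21 higher and 8 lower, so the lower counts of both types are near the 36% of all genes. These iHep over PH splits rest on a scaling that also moves the split of all genes, as given above.

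Within the stratified class Krt9, Krt16, Krt24, Krt79 and Krt80 had their highest measured levels on PH. Krt16, which wounded epidermis makes, had levels of 0.33 on MF and 4.35 on PH, 16.3-fold higher. Its only spot on iHep was marked as an outlier and left out. With that spot kept, its level there was 2.32, between the other arrays. Krt9, the keratin of palms and soles, had levels of -5.65, -2.70 and -1.81, which is 7.72-fold higher on iHep and 14.4-fold higher on PH than on MF. With normexp these differences were 0.65 and 1.49 on the log2 scale, and the iHep one no longer reached 2-fold. Krt80, a type II keratin found in many epithelia, had levels of -2.32, -2.76 and 1.29, so PH alone was high, 12.2-fold above MF and 16.6-fold above iHep. Krt79, of the hair canal and sebaceous duct, had levels of -2.38, -1.61 and 0.35, and PH was 6.64-fold above MF and 3.90-fold above iHep. Krt24 had levels of -7.50 (not above background), -5.37 and -3.40, with PH at least 7.48-fold above MF (a call lost with an alternative) and 3.91-fold above iHep.

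Krt13, the type I keratin of mucosal linings, was the 1 stratified keratin at least 2-fold higher on iHep than on PH. Its levels were -4.53, -1.78 and -3.08, which put iHep 6.72-fold above MF and 2.46-fold above PH. PH was 2.73-fold above MF, a call lost under several alternatives, and the iHep over MF difference was 1.20 (log2) with normexp. The basal pair split: Krt5 had levels of -5.31, -3.93 and -3.41, 2.60-fold and 3.71-fold higher on iHep and PH than on MF, whereas Krt14 had levels of -3.37, -5.16 and -4.33 and was 3.46-fold lower on iHep and 1.95-fold lower on PH. The Krt5 differences turned to -0.61 and -0.054 (log2) with normexp, so its direction depends on the background correction, whereas the Krt14 call for iHep over MF held. A second Krt5 probe was not above background on any array. Krt15, a second basal type I keratin, had levels of -7.40 (not above background), -6.87 and -4.59, and PH was at least 3.28-fold above MF (a call lost with an alternative) and 4.85-fold above iHep. Krt6a, of wounded epidermis, was at least 3.85-fold higher on iHep and at least 2.80-fold higher on PH than on MF, where it was not above background, and Krt6b was 2.82-fold higher on PH than on MF and 2.13-fold lower on iHep than on PH. All 4 of these calls were lost under at least 1 alternative. Krt12, the keratin of corneal epithelium, had probes that disagreed: the brighter was above background on PH only (-5.66) and the other on iHep only (-5.31), so its bound of at least 3.17-fold lower on iHep than on PH carries no direction. Krt10 differed by 1.82-fold at most by its brighter probe, and by 2.21 (log2) for PH over MF by the other. Krt2 did not reach 2-fold in any comparison. Krt17 and Krt78 did not reach it between iHep and PH. Their bounds against MF were under 2-fold, as were the bounds of Krt1, which leaves those differences open.

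Of the root sheath group, Krt72, Krt73 and Krt75 were above background on every array. Krt75, the type II keratin of the companion layer, had levels of 1.30 on MF, 3.02 on iHep and 3.80 on PH, 3.30-fold and 5.66-fold higher on iHep and PH than on MF. Krt73, an inner root sheath keratin, had levels of -0.71, 1.44 and 2.06, 4.43-fold and 6.80-fold higher. For both genes MF was low and the iHep array lay below PH by less than 2-fold. Krt72 ran otherwise, with levels of -5.89, -7.15 and -5.89, and was 2.40-fold lower on iHep than on MF and than on PH (both calls lost under an alternative). Krt28, Krt71 and Krt74 were above background on PH only, at -5.22, -5.86 and -5.83, which gives bounds of at least 4.29-fold, 2.76-fold and 2.54-fold above iHep, each lost under at least 1 alternative. Against MF the Krt28 bound was 2.12-fold, a call lost under 3 alternatives. The Krt71 and Krt74 bounds against MF were under 2-fold, which leaves those differences open.

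Of the hair keratins, Krt31, Krt35, Krt81 and Krt86 were above background on every array. Krt31, a type I keratin of the hair cortex, had levels of -3.07 on MF, -2.81 on iHep and 0.44 on PH, so PH was high, 11.4-fold above MF and 9.52-fold above iHep. Krt86, a type II hair keratin, had levels of -4.43, -2.43 and -1.73, 3.99-fold and 6.48-fold higher on iHep and PH than on MF, of which the PH call held under every alternative at 2-fold and the iHep call did not. Krt36, a type I keratin of hair and of tongue papillae, was above background on iHep only, at -3.72, at least 5.99-fold above MF and 7.68-fold above PH. Its other probe was fainter there, at -6.85, and the call against MF was lost under an alternative. Krt35 was 2.19-fold higher on PH than on MF and 2.54-fold lower on iHep than on PH, Krt82 was 2.53-fold lower and Krt40 at least 2.32-fold lower on iHep than on PH, and all 4 calls were lost under an alternative. Krt81 did not reach 2-fold in any comparison, and Krt34 and Krt87 did not reach it between iHep and PH. The bounds of Krt34 and Krt87 against MF and those of Krt32 were under 2-fold, which leaves those differences open. Outside these classes, Krt42, a type I keratin of the nail unit, was high on iHep, with levels of -3.99, -1.77 and -3.94, 4.68-fold above MF (0.88 on the log2 scale with normexp, which ends the call) and 4.51-fold above PH. Krt88 was high on PH, with levels of -6.15, -5.69 and -1.63, 23.0-fold above MF and 16.7-fold above iHep. With normexp its PH over MF difference was 1.75 (log2), still past 2-fold, and that of iHep over MF was -1.55 in place of 0.46. Krt222, a keratin-related gene on the edge of the chromosome 11 cluster, was high on MF, with levels of 1.58, -1.28 and -1.70, and was 7.25-fold lower on iHep and 9.71-fold lower on PH. Its second probe was not above background on any array.

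Markers of other cells were also measured on PH, beside the keratins that were highest there. Of 10 pancreatic acinar markers, 10 were above background on PH with a median level of 5.30, and log2 summed levels were -1.13 on MF, -0.34 on iHep and 8.74 on PH. Of 9 macrophage markers 9, 6 and 9 were above background on MF, iHep and PH, with log2 summed levels of 6.46, 1.08 and 6.60. Fibroblast markers were above background for 10 of 10 on PH, with a summed log2 level of 6.39 against 9.26 on MF. Their part in the levels of Krt16, Krt23, Krt31, Krt79, Krt80 and Krt88 was not tested. Nor was it tested whether a probe also bound a near-identical family member, as Krt6a with Krt6b or Krt14 with Krt16, Krt17 and Krt42 could.

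Partners of the known pairs can be read side by side. Krt8 and Krt18 ran together, with log2 differences of 5.05 and 4.32 for iHep over MF and of 4.78 and 4.64 for PH over MF. Krt7 and Krt19 ran apart for iHep over MF, at -1.63 and 2.36, as did Krt5 and Krt14, at 1.38 and -1.79. With normexp Krt5 was at -0.61, on the same side as Krt14, so the split of this pair depends on the background correction. The mucosal partner of Krt13 (2.75), Krt4, was not above background on any array, and Krt1, the partner of Krt10, was above background only on PH. For the hair pair Krt81 and Krt31, PH over MF gave -0.07 and 3.51. For wounded epidermis, Krt6a gave at least 1.49 and Krt16 gave 4.02. Krt8 and Krt18 were both at least 4-fold higher on iHep and on PH than on MF, whereas Krt6a with Krt16 could not be read on iHep, where Krt16 had no value.

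In gene order, the high values were scattered and neighbours often differed. Of the 27 genes drawn for each cluster, Krt8 and Krt18 close the chromosome 15 row, between Krt78 (levels -6.28, -5.67 and -6.41, not above background on MF) and the translation factor gene Eif4b (2.11, 2.36 and 0.48). The Krt78 bounds against MF were under 2-fold and leave its differences open, and Eif4b was lower on PH than on MF. On chromosome 11, Krt20 and Krt23 lie side by side and were the pair with a PH difference from MF of -4.56 and at least 3.65. Krt19 (2.36 and 0.03 for iHep and PH over MF) lies between Krt15 and Krt9, and Krt9 gave 2.95 and 3.84.

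**Figure D3:**
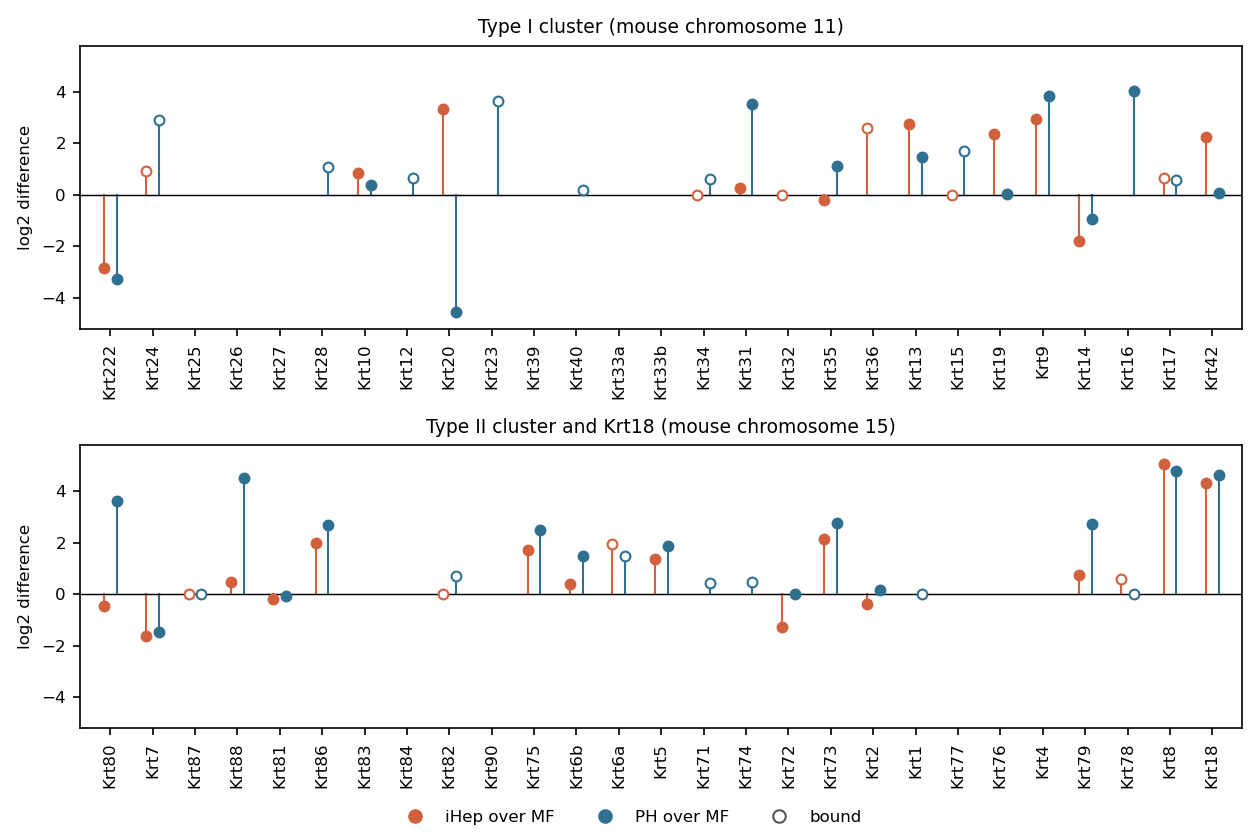
Log2 differences for iHep over MF and PH over MF of keratin genes in their order along the type I cluster (upper row) and the type II cluster with Krt18 (lower row); spacing is even and not to genomic scale. Open symbols are bounds and empty positions had no probe or no signal on either side. The exception is Krt16 for iHep over MF, which is empty because its only iHep spot was left out as an outlier. Krt8 and Krt18 at the right end of the lower row are high in both comparisons, while Krt20 and its neighbour Krt23 point in opposite directions for PH.

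Other genes of the filament system were read from 4 lists, whose counts stand beside shares of all genes of 20% higher and 23.4% lower (iHep against MF), 30.9% and 25.4% (PH against MF), and 23.2% and 36% (iHep against PH). Of non-keratin intermediate filaments and lamins, 1 of 14 was higher and 8 lower on iHep than on MF, with a median log2 difference of -1.44. Vim, the vimentin of fibroblast filaments, had levels of 6.28 on MF, 4.48 on iHep and 3.74 on PH, 3.48-fold and 5.81-fold lower on iHep and PH than on MF. The iHep difference of Vim was as small as -0.80 after another normalization, which ends its call. Des, the muscle filament desmin, was 7.96-fold lower on iHep and 16.7-fold lower on PH than on MF, and Sync, syncoilin, 4.95-fold and 19.1-fold lower. Synm, synemin, and Nefm, a neurofilament chain, were at least 7.93-fold and at least 7.64-fold lower on iHep than on MF, and the lamin gene Lmna was 14.5-fold lower on PH than on MF. Neuronal filament genes were mixed for PH against MF. Nefm was at least 5.66-fold lower on PH, and Nefl was not above background on any array. Higher on PH than on MF were Prph (peripherin) at least 25.1-fold, Ina 12.8-fold, Nefh at least 10.1-fold (a call lost with normexp) and Nes (nestin) 3.72-fold. The same 4 genes were lower on iHep than on PH, with log2 differences of -4.70 for Prph, -3.56 for Ina, -4.35 or further for Nefh and -3.70 for Nes. For PH over MF 6 of 15 filament genes were higher and 6 lower. Their median of 0.60 turned to -0.12 in the authors' values and to -0.55 with normexp, where 4 were higher and 7 lower. For iHep over PH 3 of 14 filament genes were higher and 6 lower. That split was 5 and 5 after quantile normalization and 1 and 6 with normexp.

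Keratin anchors link the filaments to desmosomes and other junctions. On iHep against MF, 7 of 17 were higher and 4 lower. On PH against MF, 9 of 18 were higher and 4 lower, and on iHep against PH 6 of 18 were higher and 7 lower. Dsp, the desmoplakin that binds keratin at desmosomes, had levels of -5.16 on MF, -0.06 on iHep and 0.67 on PH, 34.4-fold and 56.8-fold higher on iHep and PH than on MF (its probes disagreed in size, and the log2 differences were as small as 3.02 and 3.71 under an alternative). Eppk1, epiplakin, had levels of -2.20, 2.20 and 0.79, and Ppl, periplakin, had levels of -5.36, -1.30 and -1.99. For these 3 the iHep and PH arrays were both high. The desmosomal cadherins were different. Dsg2 was not above background on MF and had levels of -3.28 on iHep and -0.80 on PH, 5.57-fold lower on iHep. Dsc2 had levels of -5.79 on MF and -0.06 on PH and was not above background on iHep, at least 154-fold below PH. Pkp3, plakophilin 3, had levels of 3.11, 1.95 and 5.23 and was 9.73-fold lower on iHep than on PH, and Tchp was 4.51-fold higher. Plec, plectin, which also serves vimentin, had levels of 4.90, 3.35 and 1.86.

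Regulators of keratin genes were mixed, with 8 of 18 higher and 4 lower on iHep against MF, 9 of 18 higher and 6 lower on PH against MF, and 7 of 17 higher and 5 lower on iHep against PH. With normexp 5 were higher and 6 lower on PH against MF, and the median log2 difference turned from 0.76 to -0.15. The median for iHep against MF was 0.00 with normexp in place of 0.49. Klf5, a factor of gut and basal epithelium, had levels of -3.77, 0.10 and -3.74, high on iHep alone, 14.7-fold above MF and 14.4-fold above PH. Tfap2a, the AP-2 factor of ectoderm, was at -1.75 on iHep and -6.06 on PH and was not above background on MF, so iHep was 19.9-fold above PH. Elf3, an epithelial ETS factor, was not above background on MF and had levels of -2.17 and -2.61 on iHep and PH, at least 17.5-fold and 13.0-fold higher. Grhl1, a grainyhead factor of epithelia, had levels of -4.12, 0.23 and -2.37, 20.4-fold above MF and 6.03-fold above PH on iHep. Grhl2, a second one, was also not above background on MF and had levels of -4.21 and -3.84, with calls that were lost with normexp. Esrp1, an epithelial splicing factor, had levels of -0.63, 3.40 and 4.14, with a difference for iHep over MF as small as 1.06 (log2) under an alternative. Trp63, the p63 of basal cells, had levels of 1.70, 0.05 and 1.15 and was 3.13-fold lower on iHep than on MF. Esrp2, the paralog of Esrp1, and Msx2, a homeobox factor, were high on PH alone, 18.2-fold and 16.4-fold above iHep. Snai1, a repressor of epithelial genes, had levels of 0.25, -2.46 and -4.82, 33.5-fold lower on PH than on MF. The related repressors were mixed on iHep against MF. Zeb1 was 5.97-fold lower, Snai2 1.52-fold lower and Zeb2 2.17-fold higher (a call lost under an alternative). Zeb2 and Snai2 were 7.47-fold and 12.6-fold higher on iHep than on PH. Hoxc13, a factor of the hair shaft, was above background on MF only, at -1.61, at least 52.5-fold above iHep and 38.2-fold above PH. Klf5 and Tfap2a were thus high on iHep alone, and Elf3 and Esrp1 on both iHep and PH.

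Of 17 genes of the cornified envelope, the shell of terminally differentiated epidermal cells, 10 could be compared in each comparison. For iHep over MF 5 were higher and 3 lower, with a median log2 difference of 1.01. In the authors' values, where only 6 genes of the list could be compared, that median was -0.64. For PH over MF 4 were higher and 4 lower. Cdsn, corneodesmosin, had levels of -2.11, 1.48 and -4.28 and was 54.2-fold higher on iHep than on PH. Tgm3, an epidermal transglutaminase, had levels of 0.26, 0.34 and 5.36 and was 34.3-fold higher on PH than on MF. Tchh, the trichohyalin of the root sheath, had levels of -1.89 on MF and -4.10 on PH and was not above background on iHep. Sprr1a and Sprr1b, small proline-rich envelope proteins, were 8.11-fold and at least 4.36-fold higher on iHep than on MF. For PH over MF the log2 differences were 3.40 for Tgm1, a second transglutaminase, 2.48 for Lor (loricrin) and -3.23 for Scel (sciellin), and on PH Dsg1a was at least 8.12-fold above iHep. Ivl, the envelope protein involucrin, was above background on MF only, at -5.78.

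**Figure D4:**
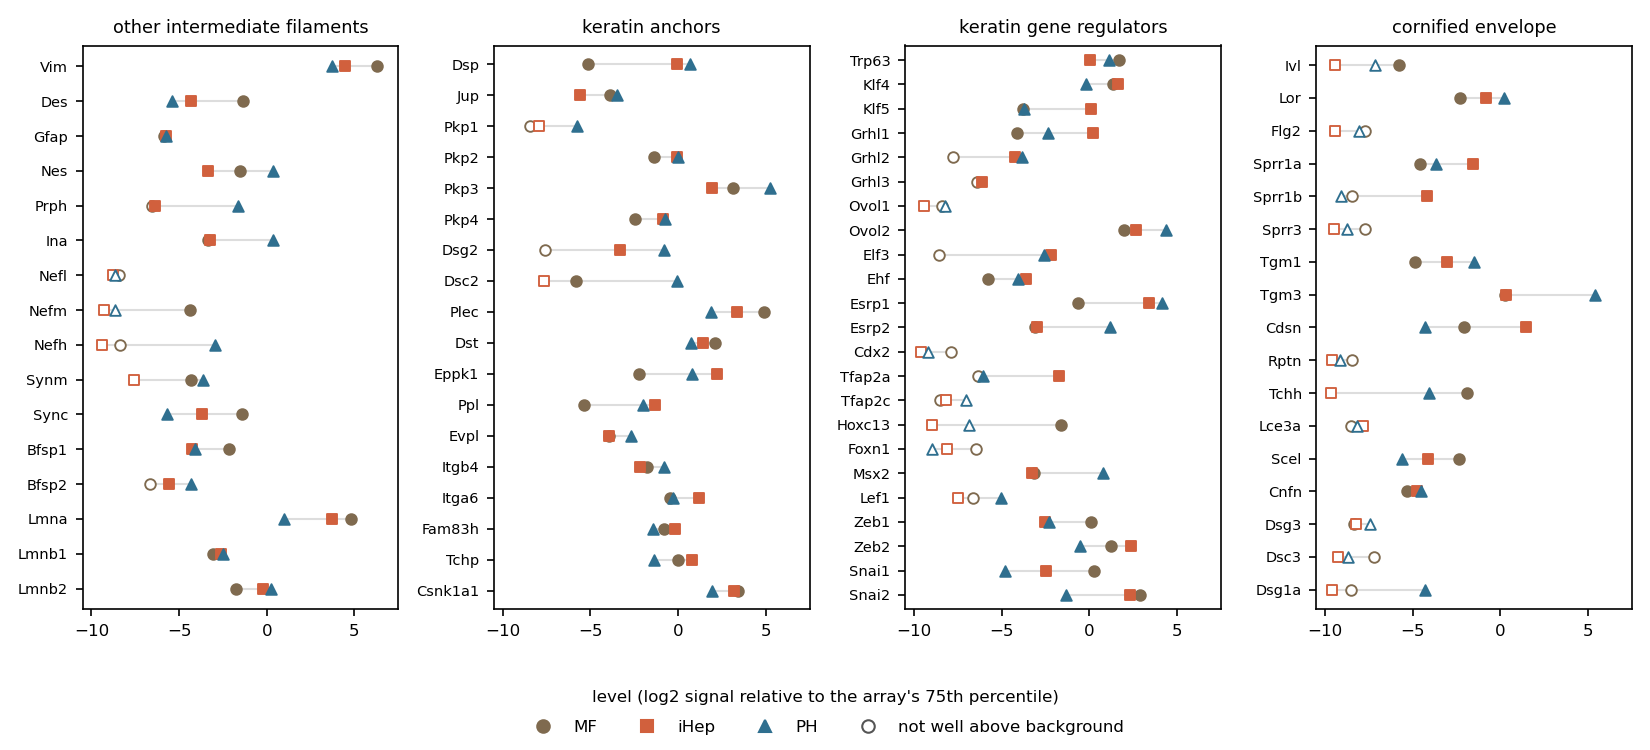
Levels of the genes in the 4 lists (non-keratin intermediate filaments, keratin anchors, keratin gene regulators and cornified envelope) on the MF (circle), iHep (square) and PH (triangle) array, as log2 signal relative to the array's 75th percentile. Open symbols were not well above background. Vim and Plec are highest on MF, Dsp, Eppk1, Ppl, Elf3 and Esrp1 are high on both iHep and PH, and Klf5 and Tfap2a are high on iHep alone.

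Calls differed in how far they rested on the processing. Leaving the fold threshold aside, 7 of the 13 keratins higher on iHep than on MF kept that call under every alternative run for them (Krt8, Krt13, Krt18, Krt19, Krt20, Krt73 and Krt75), as did 3 of the 4 lower (Krt7, Krt14 and Krt222). For PH over MF, 12 of 20 higher and 3 of 3 lower calls were kept. For iHep over PH all 5 higher calls were kept (Krt13, Krt19, Krt20, Krt36 and Krt42) and 7 of 16 lower ones (Krt15, Krt23, Krt24, Krt31, Krt79, Krt80 and Krt88). Of the keratins with kept calls, Krt8, Krt9, Krt24 and Krt75 had no value in the authors' processed table, Krt16 had none after quantile normalization, and Krt15, Krt16, Krt23, Krt24 and Krt36 dropped out where only probes above background on all 3 arrays were kept, so those alternatives were not run for them.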

How the data were processed

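RNA of 3 cell pools was measured on 1 one-colour array each, grouped by sample title. The scanner files, as deposited, give each spot's intensity from Agilent Feature Extraction 11.0.1.1 per the file headers (9.1 per the submitters' processing notes), background-subtracted and detrended within the array, on a design annotated on mm9. The authors' deposited value table holds log2 values whose normalization and scale are unstated. Its columns have medians of 7.02, 7.01 and 7.07 and correlated with the scanner values at 0.997, 0.998 and 0.994 for MF, iHep and PH. It covers 38 of the keratin genes and served as an alternative.

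Processed intensity was divided by the 75th percentile of the array's non-control spots and put on a log2 scale. Control spots and spots marked as non-uniform or population outliers (190, 230 and 383 of 43020) were left out. No spot was saturated, and averaging repeated spots gave 39429 probes. Probes were named by transcript accession through a RefSeq table of GRCm38.p6, which named 27234 and left 12195 unnamed. The probe with the highest mean level stood for a gene. Where 1 of 2 arrays was well above background, the difference is a bound ("at least") against the dim reading or, where higher, the lowest level called above background on that array. A bound under 2-fold says only that 2-fold was not reached, and where neither array was above background no fold is given. With 1 array per group no test was run, the number of arrays limits the precision, and genes were counted at 2-fold. Summed levels are log2 of the sum of linear levels of a list.

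Every keratin is accounted for: simple keratins in full, others above background and 2-fold different by value, the rest by count. Of the 4 partner lists, up to 4 members with the largest difference per comparison are named, and Vim, Dsp, Trp63, Klf5, Grhl2 and Elf3. Plec, Ina, Ivl, Eif4b and other genes outside that rule were chosen after their values were seen. The members and lists were chosen with earlier results of these data known. Scripts were tested on simulated data (Python 3.11.15, pandas 2.3.3, numpy 2.4.6). Alternatives were normexp (limma 3.58.1, R 4.3.3, offset 50) on median signals, the authors' values, quantile normalization, scaling to a median over probes above background, 3 other filters on dim signal, averaging the probes of a gene, thresholds of 4-fold and 1.5-fold, and, added after seeing the data, outlier spots kept and a common background floor.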

Additional observations from a re-analysis of the deposited data

How the results depend on the processing

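Of 204 counts and medians recomputed under 12 alternatives, 175 stayed (counts within 1.5 times, medians within the pooled SD between probes of a gene). Of 1180 keratin differences, 1088 stayed, 84 moved and 8 reversed. The fold threshold does not enter a difference or a median, so under 4-fold and 1.5-fold these stayed by construction (115 of 115 differences each). Keeping only probes above background on all 3 arrays reuses the same readings, and 72 of 72 stayed. With normexp 80 of 114 stayed, with quantile normalization 94 of 114, and in the authors' values 74 of 86. The cause of the changes was not tested, except that a higher threshold calls fewer genes by construction. With a 4-fold threshold, 13 keratins were higher for PH over MF, 1 lower for iHep over MF and 6 lower for iHep over PH. A common background floor left 10 lower for iHep over PH. Without a filter on dim probes, 11 were lower for iHep over MF and the root sheath median for iHep over MF turned to -0.21. With normexp, 7 were higher and 9 lower for iHep over MF, 12 higher and 6 lower for PH over MF, and the PH over MF medians were 0.44 for simple and 0.00 for stratified keratins. With only probes above background on all 3 arrays, 7 were lower for iHep over PH, and PH over MF medians were 1.91 for hair, 2.50 for root sheath and 0.029 for simple keratins. Quantile normalization gave 13 higher and 6 lower for PH over MF and 10 higher and 7 lower for iHep over PH. The authors' values gave 10 higher and 6 lower for PH over MF, and 10 higher and 7 lower for iHep over PH. Their medians were -0.21 for simple keratins (PH over MF) and 0.50 for root sheath (iHep over MF). For iHep over PH they were -0.17, 0.32 and 0.48 for root sheath, stratified and hair keratins. The authors' values cover 38 of the keratin genes and lack Krt8, so these counts and medians can rest on fewer genes. Single genes that reversed with normexp were Krt5 (-0.61 for iHep over MF and -0.054 for PH over MF), Krt35 (-0.68 for PH over MF), Krt6b (-0.15 for PH over MF) and Krt12 (0.26 for iHep over PH). In the authors' values Krt12 (2.29) and Krt6b (0.0077) reversed for iHep over PH, and with the mean of a gene's probes Krt12 was 0.64.

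No paired analysis was possible because each group has 1 array. Naming probes from a gene name column of the scanner files was not run, since these files have no such column. Signal over background limits the faint keratins most: 11 of 53 had no usable signal on any array, and the dimmer MF array bounds many differences.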
